A study of Homo sapiens with 6 samples.

Results

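The zinc finger genes of chromosome 19 were examined in the established human keratinocyte line Ker-CT. The members are the protein-coding genes of chromosome 19 whose symbol is ZNF followed by digits and that had at least 10 counts in 3 or more of the 6 libraries. This rule took 219 of the 240 such genes, and of 58302 genes in the table. Of the 6 libraries, 3 came from cells given siRNA against KMT2C, a histone H3 lysine 4 methyltransferase (siKMT2C), and 3 from cells given a control siRNA (siNC). All of the cells in both groups were held for 24 h with the M5 cocktail, made of TNF-α, IL-1α, oncostatin M, IL-22 and IL-17A at 10 ng/ml each, so the values describe cytokine-treated cells only. The series title names the question as what loss of KMT2C does to transcript levels in keratinocytes made to resemble psoriasis. Nothing in the labels says whether the libraries of a group came from separate cultures, so p-values measure only the spread between these libraries. All libraries come from this 1 cell line.

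Most ZNF genes of chromosome 19 encode DNA-binding proteins with an array of C2H2 fingers, in which a pair of cysteines and a pair of histidines hold a zinc ion. Many also carry a KRAB domain at the N terminus, which recruits the corepressor TRIM28 and, through it, the histone H3 lysine 9 methyltransferase SETDB1 and heterochromatin proteins. Such proteins are known for silencing transposable elements. The genes arose largely by tandem duplication and lie in clusters, with neighbours of similar sequence.

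The members had these features in the GENCODE 29 transcripts. A finger pattern (cysteines and histidines at C2H2 spacing) was found in 218 of 219 members, with a median of 12 patterns and at most 32 in the translated coding sequence. A KRAB-like pattern was found in 164. It is a fixed pattern of residues searched in a single transcript per gene, so a member without a match may still encode a KRAB domain. Their transcripts had a median GC content of 42.4%, against 48.7% over all 15063 genes tested. They were expressed at low levels, with a median of 0.885 FPKM (reads per kilobase of gene, scaled to depth) against 3.10 FPKM over all genes tested. Counts chose the members, so the level has a floor: the members nearest the minimum were ZNF233, with a third-highest count of 11, and ZNF491, ZNF497 and ZNF66, each with 12. Just outside lay ZNF878, ZNF667 and ZNF208, with 6, 5 and 4. Of the members, 206 had at least 10 counts in all 6 libraries, and all 219 passed the expression filter of the test. In 0 members did the libraries with at least 10 counts all belong to 1 group. Of the 21 genes below the minimum, 12 had a count of 0 in every library.

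Promoter windows from RefSeq (GRCh38.p14, 250 bases before to 50 after the start site) matched 195 of the 219 members by symbol. Those of 3 called risen members and of the 1 called fallen member are shown because they hold the short motifs compared later. Capitals mark the ETS core motif CCGGAAG on either strand, and in ZNF426 the CRE motif TGACGTCA.
ZNF616 promoter, chr19:52139889-52140188, minus strand: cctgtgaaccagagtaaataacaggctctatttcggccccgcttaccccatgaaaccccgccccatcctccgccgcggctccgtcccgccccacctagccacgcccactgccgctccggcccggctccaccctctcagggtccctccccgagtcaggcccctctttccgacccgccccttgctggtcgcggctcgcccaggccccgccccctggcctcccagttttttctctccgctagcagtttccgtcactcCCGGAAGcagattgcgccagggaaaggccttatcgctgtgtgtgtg
ZNF845 promoter, chr19:53333499-53333798, plus strand: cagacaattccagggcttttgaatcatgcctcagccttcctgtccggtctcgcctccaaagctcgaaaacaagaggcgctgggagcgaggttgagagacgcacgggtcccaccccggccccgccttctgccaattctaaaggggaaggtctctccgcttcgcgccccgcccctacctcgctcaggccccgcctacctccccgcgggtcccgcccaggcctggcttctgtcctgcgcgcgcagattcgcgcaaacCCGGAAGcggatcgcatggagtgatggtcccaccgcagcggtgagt
ZNF426 promoter, chr19:9538596-9538895, minus strand: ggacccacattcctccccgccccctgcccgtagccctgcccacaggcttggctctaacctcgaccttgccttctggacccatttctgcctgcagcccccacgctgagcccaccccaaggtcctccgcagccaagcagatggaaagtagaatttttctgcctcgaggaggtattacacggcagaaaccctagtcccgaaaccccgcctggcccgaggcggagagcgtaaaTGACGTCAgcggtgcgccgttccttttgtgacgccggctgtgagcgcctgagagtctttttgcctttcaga
ZNF551 promoter, chr19:57681727-57682026, plus strand: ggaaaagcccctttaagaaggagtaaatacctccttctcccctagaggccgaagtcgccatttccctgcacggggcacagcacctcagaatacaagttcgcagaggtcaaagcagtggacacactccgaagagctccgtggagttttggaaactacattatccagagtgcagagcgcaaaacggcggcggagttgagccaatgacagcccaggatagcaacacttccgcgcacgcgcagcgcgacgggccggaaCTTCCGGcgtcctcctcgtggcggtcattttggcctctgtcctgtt

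The libraries held 14409277 to 17539519 counts, of which the members took 0.244% to 0.254% in siKMT2C and 0.201% to 0.221% in siNC. KMT2C was at 32.0, 30.8 and 27.3 CPM (counts scaled to library size, with TMM factors) in the siKMT2C libraries and at 87.9, 82.0 and 72.6 CPM in the siNC libraries, a log2 fold change of -1.43 (SE 0.14, edgeR adjusted p = 0.00786), which checks the labels. All 10 keratinocyte markers were detected, KRT14 the most abundant of them, and their summed level was 17219 to 23782 CPM in siKMT2C and 17899 to 27083 CPM in siNC. The fibroblast markers summed to 13.7 to 17.7 CPM in siKMT2C and 21.1 to 31.5 CPM in siNC, and these ranges did not overlap. Immune markers summed to 0.246 to 0.450 CPM in siKMT2C and 1.11 to 1.46 CPM in siNC, which did not overlap, with CD207, CD3E and PTPRC at 0 counts, and endothelial markers to at most 0.169 CPM. Melanocyte markers lay between 6.67 and 15.1 CPM, with DCT, SOX10 and TYR at 0 counts, and MITF was the most abundant of that list. None of these 34 markers was called. The part of other cell types in the ZNF values was not tested.

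ZNF genes of chromosome 19 were, on the whole, higher in siKMT2C. The log2 fold change (siKMT2C over siNC) was positive in 160 of 219 members (73.1%), with a median of 0.24, against 49.7% positive and a median of -0.00250 over all genes tested. Not all of these values are separate measurements. Of the members, 87 overlap another tested gene. In 50, over 10% of the 50-base windows of the transcript also occur in another gene's transcripts, so reads may be shared. In bulk RNA, fewer cells of a type and less RNA per cell cannot be told apart. Calls were few: 6 members rose and 1 fell (adjusted p under 0.05 over all genes in the quasi-likelihood test of edgeR). Over all genes tested 0.690% were called higher and 0.810% lower, and the members' shares were 2.74% and 0.457%. The 6 risen members were ZNF616, ZNF525, ZNF426, ZNF845, ZNF813 and ZNF229, and the fallen one was ZNF551. In 51 members (23.3%) every siKMT2C library lay above every siNC library, and in 7 (3.20%) below. Over all genes tested these shares were 11.8% and 12.3%.

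The shift was set beside 2 other groups of genes. ZNF genes of other chromosomes that met the same count minimum (210 genes) had a median log2 fold change of 0.02, with 51.4% positive, 2 called higher and 1 lower. In 34 of these 210 genes every siKMT2C library lay above every siNC library, and in 21 below. At an unadjusted edgeR p under 0.05, 31 of them were higher and 12 lower, against 1191 and 1357 of all 15063 genes. Some excess of higher values was therefore also seen in ZNF genes outside chromosome 19. The other tested protein-coding genes of chromosome 19 (706 genes) had a median of -0.05, with 42.1% positive, 1 called higher and 3 lower. No test was made between these sets, since genes are not replicates. As the cumulative distributions show, the members' curve lay to the right of the others over most of its range.

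**Figure D1:**
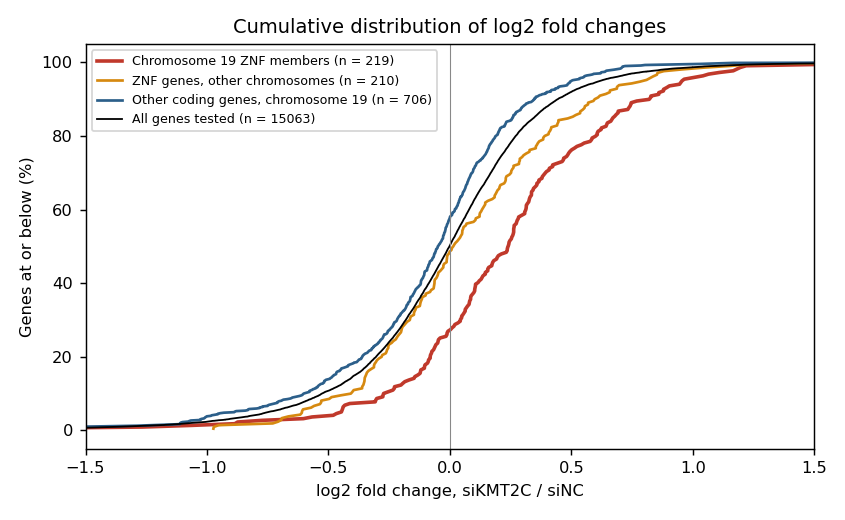
Cumulative share of genes (%) against log2 fold change (siKMT2C over siNC) for the 219 members, 210 ZNF genes of other chromosomes, 706 other coding genes of chromosome 19 and all 15063 genes tested. The axis is limited to ±1.5, and the members cross 50% at 0.24 while all genes tested cross it near 0.

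ZNF616, a KRAB-like gene with 22 finger patterns, had the largest rise. In order of replicate, its level was 17.1, 16.6 and 16.6 CPM with siKMT2C and 5.26, 6.16 and 3.32 CPM with siNC; all values below are given in this order. The siKMT2C libraries lay close together and far above the siNC libraries, of which replicate 3 was lowest. ZNF616 rose 3.42-fold (log2 fold change 1.77, SE 0.24, n = 3 per group, edgeR adjusted p = 0.0188). ZNF616 (ENSG00000204611) spans 52113091 to 52139922 on chromosome 19 (GRCh38).

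ZNF426 (12 finger patterns, KRAB-like; 9523224 to 9538645) gave the smallest p of the members. It was at 30.9, 30.3 and 27.4 CPM in siKMT2C and at 13.6, 13.6 and 11.8 CPM in siNC. The groups were well apart, and ZNF426 rose 2.27-fold (log2 fold change 1.18, SE 0.14, n = 3 per group, edgeR adjusted p = 0.0135). Per length it was second among the risen members, at 2.12 FPKM, after ZNF845 at 2.81 FPKM.

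Neighbouring genes ZNF845, ZNF525 and ZNF813, all KRAB-like, rose together, and ZNF765 and ZNF761 lie between them. ZNF845 was at 17.4, 20.6 and 16.2 CPM in siKMT2C and at 9.61, 8.10 and 7.43 CPM in siNC (log2 fold change 1.11, SE 0.18, edgeR adjusted p = 0.0327). ZNF525 was at 13.3, 14.3 and 14.8 CPM against 7.67, 5.19 and 5.29 CPM (1.22, SE 0.20, edgeR adjusted p = 0.0347). ZNF813 was at 13.9, 15.7 and 14.1 CPM against 7.09, 8.31 and 5.52 CPM (1.06, SE 0.19, edgeR adjusted p = 0.0456). In each of these 3 genes the groups did not overlap. ZNF761, at 17.8, 18.6 and 15.2 CPM against 10.7, 8.58 and 7.32 CPM, just missed the threshold (0.95, SE 0.19, edgeR adjusted p = 0.0598). ZNF765 was at 11.01, 9.89 and 8.97 CPM against 6.64, 7.20 and 6.19 CPM (0.58, SE 0.17, edgeR adjusted p = 0.144). These neighbours share sequence: 7.05% of the 50-base windows of the ZNF845 transcript, 7.47% of ZNF525, 11.4% of ZNF813, 10.8% of ZNF761 and 10.2% of ZNF765 also occur in a transcript of another gene. Reads from such windows may have been split or dropped in counting, so each gene's level is uncertain to that extent. ZNF525 and ZNF765 also overlap each other.

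ZNF229, in another cluster, was at 18.3, 16.9 and 19.9 CPM in siKMT2C and at 8.81, 9.97 and 11.2 CPM in siNC. All 3 siKMT2C values were above all siNC values (log2 fold change 0.88, SE 0.17, n = 3 per group, edgeR adjusted p = 0.0491). With library size alone in place of TMM, ZNF229 was not called (edgeR adjusted p = 0.057).

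ZNF551 was the 1 member that fell. It was at 2.45, 3.02 and 2.21 CPM in siKMT2C and at 13.2, 6.16 and 9.12 CPM in siNC, a 3.71-fold fall (log2 fold change -1.89, SE 0.31, n = 3 per group, edgeR adjusted p = 0.0328). The siNC libraries spread widely, and all of them lay above the siKMT2C libraries. ZNF551 (57681969 to 57717301) overlaps ZNF154 in the annotation, so reads of the overlap are uncertain.

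**Figure D2:**
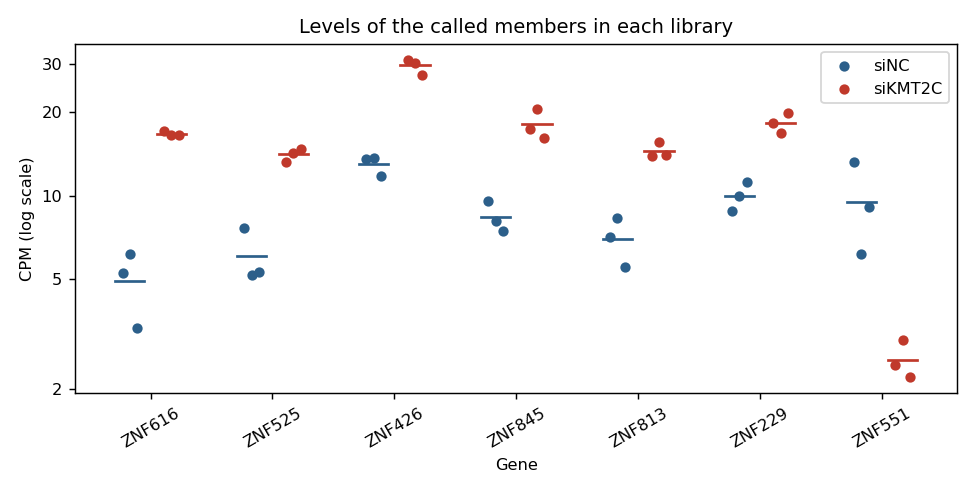
Level in CPM (log axis) of the 7 called members in each library, with siNC in blue and siKMT2C in red, points for replicates 1 to 3 from left to right and a bar for the mean. In ZNF616, ZNF525, ZNF426, ZNF845, ZNF813 and ZNF229 the red points lie above the blue ones, and in ZNF551 below.

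The calls, of members and of all genes, depended on single libraries. Without siKMT2C replicate 1, 2 or 3, and without siNC replicate 2, edgeR called 0 members in either direction. These fits called only 20, 19, 34 and 16 of all genes, against 226 with all libraries. Shares of all genes called higher were 0.0518%, 0.0582%, 0.104% and 0.0389%, and lower 0.0777%, 0.0646%, 0.117% and 0.0648%. The 0 therefore says little about the members. At an unadjusted edgeR p under 0.05, 32, 34, 38 and 38 members were higher and 3, 2, 5 and 3 lower. Shares of all genes at that p were not counted in these fits. Without siNC replicate 1, ZNF525 alone was called, in a fit that called 0.143% of all genes higher and 0.195% lower. Without siNC replicate 3, 10 members were called higher and 2 lower. That fit called 1.71% of all genes higher and 2.33% lower, more than with all libraries. DESeq2 called 19 members higher and 1 lower, 8.68% and 0.457% of them, where it called 2.68% of all genes higher and 3.05% lower. All 7 members called by edgeR were among these.

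Members with large but uncalled changes followed. The second largest positive value was that of ZNF546, a member at low level (0.14 FPKM) that lies alone on the chromosome and fell just short of the level minimum for named genes, so it was chosen after its values were seen. It was at 4.04, 3.02 and 1.47 CPM against 1.09, 0.692 and 0.957 CPM, with no overlap (log2 fold change 1.62, SE 0.42, edgeR adjusted p = 0.104), and was called by DESeq2 and after GC and length correction. ZNF415 was at 3.98, 8.93 and 5.10 CPM in siKMT2C and at 2.63, 2.15 and 3.04 CPM in siNC (log2 fold change 1.20, SE 0.33, edgeR adjusted p = 0.126). ZNF468 was at 18.5, 20.7 and 21.7 CPM against 11.2, 11.8 and 6.70 CPM (1.04, SE 0.23, edgeR adjusted p = 0.0729). Neither gene's groups overlapped. Since ZNF468 overlaps ZNF320 on the chromosome, its reads are uncertain. ZNF793 (1.00, SE 0.48) was uneven, with siKMT2C replicate 1 at 4.10 CPM beside 13.7 and 14.9 CPM in replicates 2 and 3, and its groups overlapped. ZNF93, which is known to silence LINE-1 retrotransposons, was at 10.0, 10.2 and 9.64 CPM against 6.18, 5.75 and 3.38 CPM (0.96, SE 0.24, edgeR adjusted p = 0.104).

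Of the negative values after ZNF551, none was called. ZNF628 (-1.27, SE 0.50), ZNF383 (-1.06, SE 0.48) and ZNF358 (-0.87, SE 0.40) had wide spreads. ZNF383, for example, was at 8.58 and 8.03 CPM in siNC replicates 1 and 2 and at 2.37 CPM in siNC replicate 3, just below the siKMT2C libraries (2.39 to 4.18 CPM). ZNF225 was at 5.81, 3.53 and 3.44 CPM against 8.75, 6.16 and 6.93 CPM in siNC, with no overlap (-0.77, SE 0.27, edgeR adjusted p = 0.196). The remaining negatives named by the rule, ZNF808, ZNF653, ZNF649, ZNF329 and ZNF44, had log2 fold changes from -0.57 to -0.44.

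None of the most abundant members per length was called. ZNF146 (14.6 FPKM), ZNF787 (10.3 FPKM), ZNF581 (8.85 FPKM), ZNF428 (7.28 FPKM) and ZNF526 (6.497 FPKM) had log2 fold changes of 0.00214, 0.13, 0.16, -0.11 and 0.13. Their SEs were 0.58, 0.28, 0.15, 0.45 and 0.16, so the values of ZNF146 and ZNF428 in particular were poorly determined. None of these 5 has the KRAB-like pattern. ZNF146 was at 27.3 CPM in siKMT2C replicate 1 and at 187.4 and 162.9 CPM in replicates 2 and 3, around its siNC range of 100.3 to 149.7 CPM. That 1 library therefore sets its mean, and the sign for ZNF146, ZNF787 and ZNF428 differed between settings.

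Along the chromosome the 219 members formed 15 clusters, taking genes under 1 Mb apart as one, and 8 clusters of at least 5 members held 208 of them. Cluster numbers run along chromosome 19 from the short to the long arm. Among these 8, cluster 5 (19668796 to 24129961, 28 members) had a median of 0.47 with all libraries, and 26 of 28 members were positive. Medians were 0.34 in cluster 2 (7069444 to 9793180, 14 members), 0.31 in cluster 14 (51571298 to 53580269, 36 members) and 0.25 in cluster 3 (11483427 to 12640098, 24 members). The order of these clusters depended on single libraries. Cluster 14 stood above cluster 5 without siNC replicate 3 (0.345 and 0.29) and without siKMT2C replicate 2 (0.383 and 0.367). Cluster 2 stood below cluster 14 without siKMT2C replicate 1 (0.227 and 0.325), siKMT2C replicate 2 (0.272 and 0.383), siNC replicate 2 (0.248 and 0.515) or siNC replicate 3 (0.177 and 0.345). Cluster 8 (36182060 to 37817300, 23 members) stood at 0.14, cluster 11 (43525497 to 45076588, 24 members) at 0.11 and cluster 15 (55476332 to 58481230, 54 members) at 0.09. The 5 members of cluster 7 (34677639 to 34964049) had a median of -0.06, and its sign turned without siKMT2C replicate 2 or 3 or siNC replicate 1 (0.16, 0.15 and 0.0901).

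**Figure D3:**
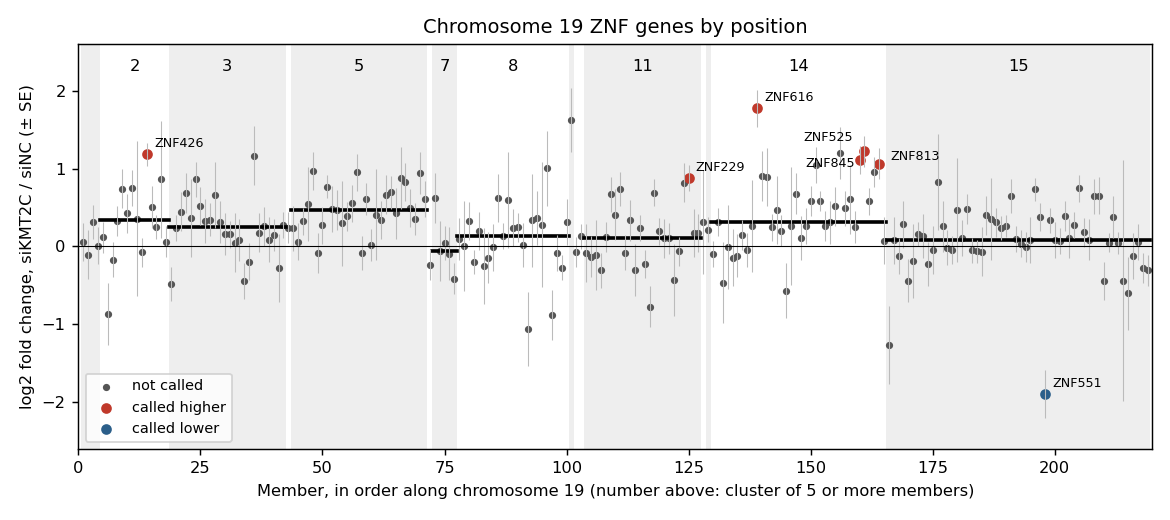
Log2 fold change (siKMT2C over siNC) with its SE for each of the 219 members in their order along chromosome 19, with shading for alternate clusters and black bars for the medians of clusters of 5 or more. The bar of cluster 5 stands at 0.47, and 4 of the 6 members called higher (red) lie in cluster 14.

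In cluster 5, edgeR called 0 of 28 members in either direction. DESeq2 called 4 higher and 0 lower, against 2.68% and 3.05% of all genes. At an unadjusted edgeR p under 0.05, 10 were higher and 0 lower, against 1191 and 1357 of all 15063 genes. In 11 members all siKMT2C libraries lay above all siNC libraries, and in 0 below, against 11.8% and 12.3% of all genes tested. Foremost was ZNF486, at 26.7, 27.4 and 24.8 CPM in siKMT2C and 16.7, 16.0 and 13.6 CPM in siNC (log2 fold change 0.77, SE 0.15, edgeR adjusted p = 0.0508). ZNF714 (0.95, SE 0.24) and ZNF681 (0.94, SE 0.27) had edgeR adjusted p of 0.104 and 0.132. Cluster 5 also had the lowest median GC content of the 8 clusters, 37.4%, and 25 of its 28 members had the KRAB-like pattern.

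Cluster 14 held 4 of the 6 risen members, ZNF616, ZNF845, ZNF525 and ZNF813. Of its 36 members 29 were positive, 13 had all siKMT2C libraries above all siNC libraries and 0 the reverse. Over all genes tested, 11.8% had all siKMT2C libraries above and 12.3% the reverse. The positive values were not spread evenly, in a split chosen after they were seen. The first 8 members of the cluster, from ZNF175 to ZNF432, ran from -0.47 to 0.31. ZNF616 and its neighbour ZNF836 (0.90, SE 0.32) followed after ZNF841. The lowest value of the cluster, that of ZNF808 (-0.57, SE 0.36), lay beyond them. ZNF320, at 41.0, 40.9 and 41.5 CPM against 29.9, 27.7 and 24.7 CPM (0.58, SE 0.13, edgeR adjusted p = 0.0771), shares 99.5% of its 50-base windows with other genes, mostly with overlapping ZNF468, so its reads cannot be told apart from those of ZNF468. The ZNF468 transcript shares 9.91% of its windows, mostly with ZNF28. That share counts only the representative ZNF468 transcript, while ZNF320 was compared with all ZNF468 transcripts. The ZNF468 count is therefore uncertain too. ZNF331, the last member of the cluster, had a value of 0.07.

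Cluster 2 held ZNF426 and ZNF559 (0.75, SE 0.23, edgeR adjusted p = 0.160) in front. In cluster 3, ZNF440 was at 24.2, 31.7 and 24.4 CPM against 18.8, 14.1 and 11.4 CPM (0.86, SE 0.22, edgeR adjusted p = 0.104) and ZNF442 at a mean of 1.39 against 0.607 CPM (1.17, SE 0.38). Cluster 11 had ZNF229 and ZNF234 (0.69, SE 0.18, edgeR adjusted p = 0.104) above 0 and ZNF225 below. In cluster 15 the single call was the fall of ZNF551, while ZNF134 was at 32.2, 32.7 and 31.8 CPM against 20.4, 16.4 and 21.4 CPM (0.73, SE 0.15, edgeR adjusted p = 0.0610). Cluster 8 had ZNF383 and ZNF540 (-0.89, SE 0.32) in front, both negative, and cluster 7 had ZNF792 (-0.41, SE 0.20) and ZNF302 (0.62, SE 0.32), of opposite sign. All siKMT2C libraries lay above all siNC libraries in 4 members of cluster 2, 5 of cluster 3, 6 of cluster 11 and 11 of cluster 15. The reverse held in 0, 1, 2 and 1. In clusters 7 and 8, 0 members lay above, and 1 and 2 below. Over all genes tested, 11.8% lay above and 12.3% below.

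Other protein-coding genes inside the same spans were compared where there were more than a few. In cluster 2, 30 such genes had a median of -0.11 with 10 positive, and 1 was called lower. In cluster 11, 22 had a median of -0.03 with 9 positive, and in cluster 15, 14 had a median of -0.06 with 6 positive. The spans of clusters 5 and 7 held 0 other tested coding genes, and those of clusters 3 and 14 held 3 and 2.

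The shift differed between libraries in size. Each gene's log2 CPM was centred on its own mean and then averaged over the members. These averages were 0.135, 0.148 and 0.0547 with siKMT2C, and -0.0449, -0.0788 and -0.214 with siNC. The groups did not overlap, and siNC replicate 3 was lowest. In cluster 5 the same means were 0.247, 0.370 and 0.0347 against -0.00667, -0.169 and -0.477, and in cluster 14 they were 0.222, 0.240 and 0.151 against -0.0873, -0.122 and -0.403. Without siNC replicate 3 the median of the members was 0.16, and 150 of 219 were positive; cluster medians without it were 0.345 in cluster 14, 0.29 in cluster 5, 0.18 in cluster 2, 0.14 in cluster 3 and 0.0273 in cluster 8.

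GC content moved with the libraries. Among other coding genes, the quartile with the lowest GC content (31.3% to 42.7%, a split chosen after seeing the data) had centred means of 0.174 in siNC replicate 1 and -0.259 in siNC replicate 3, and of 0.00642, 0.126 and -0.113 in siKMT2C replicates 1 to 3. That quartile's median log2 fold change was 0.03, with 54.4% positive. After a correction for transcript GC content and length, the members' centred means were 0.141, 0.0944 and 0.110 in siKMT2C and -0.135, -0.121 and -0.0892 in siNC, so libraries of a group lay closer together. The median of the members was 0.23 after correction. By cluster, the medians after correction were 0.47 in cluster 5, 0.33 in cluster 2, 0.29 in cluster 14, 0.20 in cluster 3, 0.0937 in cluster 8, 0.0736 in cluster 15, 0.0493 in cluster 11 and -0.0844 in cluster 7, so that of cluster 11 was less than with uncorrected counts (0.11) by over 1.5 times. With the correction 21 members were called higher and 1 lower by edgeR, 9.59% and 0.457% of the members, against 4.61% and 4.26% of all genes tested. The 7 members called without correction were among them, and 7 of the 21 lay in cluster 5 and 7 in cluster 14. Further calls of this fit were ZNF761 (0.95, SE 0.12, edgeR adjusted p = 0.00544), ZNF486 (0.75, SE 0.10, edgeR adjusted p = 0.00685) and ZNF681 (1.02, SE 0.16, edgeR adjusted p = 0.0124).

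**Figure D4:**
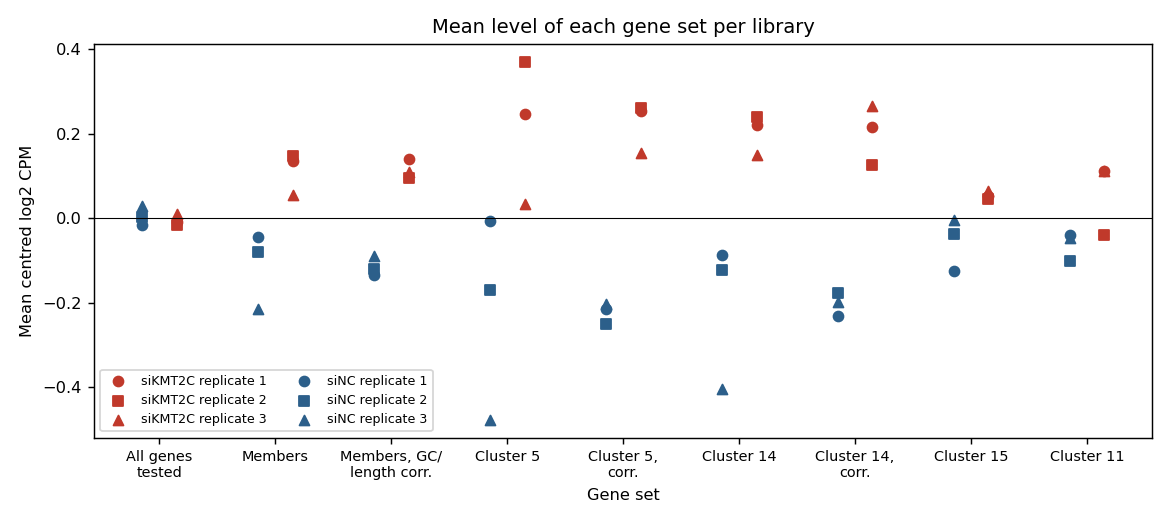
Mean centred log2 CPM in each library (siNC blue, siKMT2C red; circle, square and triangle for replicates 1, 2 and 3) for all genes tested, the members and 4 clusters, with and without GC and length correction for the members and clusters 5 and 14. In cluster 5, siNC replicate 3 stands at -0.477 before correction and at -0.204 after it.

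Members with and without the KRAB-like pattern were compared. The 164 with it had a median log2 fold change of 0.27 with 79.3% positive, and the 55 without it had a median of 0.08 with 54.5% positive. All 7 called members have the pattern. The sets also differed in transcript GC content, with a median of 42.2% with the pattern and 44.1% without. The 55 may include genes with a KRAB domain that the pattern missed. The difference in log2 fold change between the 2 sets was not tested.

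With uncorrected counts, the genes through which KRAB zinc finger proteins act showed no common shift. Of 35 listed genes (TRIM28 and SETDB1, heterochromatin proteins, deacetylases, NuRD and HUSH complex subunits, DNA and histone methyltransferases), edgeR called 0, with 18 positive and a median of 0.01. At an unadjusted edgeR p under 0.05, 2 were higher and 0 lower, against 1191 and 1357 of all 15063 genes. DESeq2 called 1 of the list, where it called 2.68% of all genes higher and 3.05% lower. TRIM28 was at 201.9, 193.4 and 201.7 CPM in siKMT2C and at 208.0, 185.2 and 301.0 CPM in siNC (-0.22, SE 0.18), so siNC replicate 3 alone lay apart, and its sign turned without that library. SETDB1 was at 27.8, 25.4 and 29.2 CPM against 26.7, 33.9 and 33.4 CPM (-0.19, SE 0.15). The histone deacetylase HDAC1 had the smallest p, at 132.0, 142.6 and 134.2 CPM against 90.8, 86.7 and 110.1 CPM (0.51, SE 0.13, edgeR adjusted p = 0.114). The NuRD subunit MTA1 (0.49), the heterochromatin proteins CBX5 (-0.25) and CBX3 (0.35), the DNA methyltransferase DNMT3A (-0.58) and the HUSH subunit FAM208A, now TASOR (0.34), followed, with edgeR adjusted p from 0.288 to 0.334. After GC and length correction edgeR called 5 of the 35, all higher: MTA1, FAM208A, HDAC1, CBX3 and HDAC2. That fit called 4.61% of all genes higher and 4.26% lower.

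Promoters of the members often held the ETS core CCGGAAG, the binding core of ETS family factors, read on either strand. It was found in 87 of 195 member promoters (44.6%), against 19.9% of 9913 promoters of tested protein-coding genes and 10.7% of all 27305 promoters of this length. In the ZNF616, ZNF845 and ZNF551 windows printed above it begins just after the start site. Of 98 matches in member promoters, 66 began within 30 bases of the start site. Cluster 5 had it in 17 of 25 promoters and cluster 14 in 18 of 30. The other clusters were not counted separately, so these shares do not compare clusters with larger and smaller shifts. The 87 members with the motif had a median log2 fold change of 0.28 with 79.3% positive, and the 108 without it 0.15 with 67.6% positive. Among other tested coding genes, those with the motif had a median of 0.03 and those without -0.02. The called fallen gene ZNF551 has it too, and a match is a description of the letters only.

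The other motifs searched on both strands were AAGATGGC (YY1), ACTACAA (ZNF143 core), the NRF1 palindrome, CACGTG (E-box) and TGACGTCA (CRE). None of the 6 motif strings contains another. They were found in 6.67%, 5.13%, 2.56%, 4.10% and 3.59% of member promoters and in 5.55%, 3.92%, 2.28%, 10.3% and 3.26% of those of tested coding genes. The E-box was the 1 motif with a lower share in the members.

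**Figure D5:**
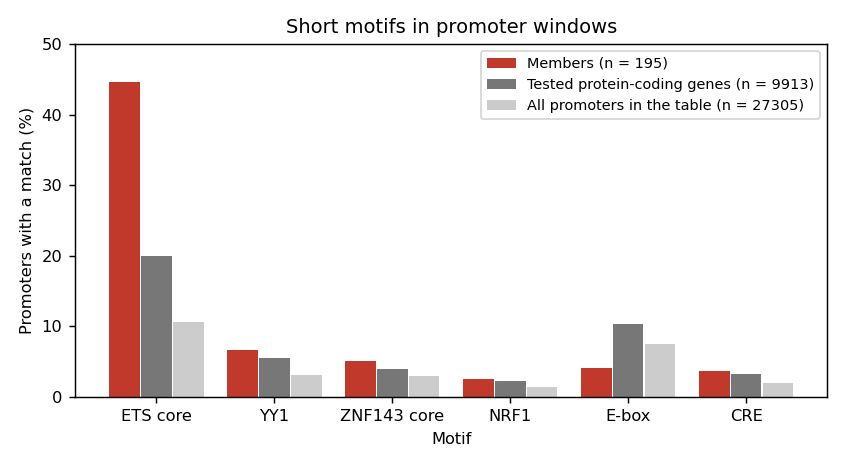
Share of promoter windows (%) with each of 6 short motifs on either strand, for 195 members, 9913 tested protein-coding genes and all 27305 windows. The ETS core is found in 44.6% of member promoters against 19.9% and 10.7%.

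Earlier results of these data had singled out the 7-mers TCGGAGA and GTATAAA, searched here on the transcript strand. TCGGAGA was found within the coding or 3′ UTR bases of 25 members (11.4%) and of 9.62% of tested protein-coding genes. ZNF616 holds 3 copies, ZNF415, ZNF836 and ZNF17 hold 2 each, and the fallen ZNF551 holds 1. The copies of ZNF616 and one each of ZNF415 and ZNF551 are shown, with the 7-mer in capitals, because their surroundings are alike: ca precedes each copy, and a or g followed by ttca comes after it. All are in coding sequence.
ZNF616, 7-mer at transcript base 1795: ttgcagtgcaTCGGAGAattcatactg
ZNF616, 7-mer at transcript base 1879: ttgcaaggcaTCGGAGAattcatactg
ZNF616, 7-mer at transcript base 1963: ttacagtgcaTCGGAGAattcatagtg
ZNF415, 7-mer at transcript base 1624: ttgcgagtcaTCGGAGAgttcatactg
ZNF551, 7-mer at transcript base 2168: tcattcgacaTCGGAGAgttcacactg
The 3 copies of ZNF616 follow each other at a distance of 84 bases. Members with TCGGAGA had a median log2 fold change of 0.34 and those without 0.24. GTATAAA in the 3′ UTR was found in 26 members (11.9%) and in 14.7% of tested protein-coding genes. Members with it had a median of 0.38 and 80.8% were positive, while all tested coding genes with it had a median of -0.12 and 36.5% were positive. ZNF426, ZNF525, ZNF813 and ZNF229 hold neither 7-mer, and ZNF845 and ZNF616 hold 1 GTATAAA each. Since the 7-mers were chosen on this same contrast, these medians are descriptions only.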

How the data were processed

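RNA-seq of 6 Ker-CT libraries was used. The authors deposited whole-number read counts and FPKM values per gene, per the file headers. CASAVA 1.8 and TopHat2 2.0.6 are named in the submitters' processing notes. They also name a mouse build, mm10, while the identifiers are human. Which counter, annotation and human build were used was not given in the sources used here. FPKM values that the authors deposited were the counts rescaled (implied gene lengths differed between libraries by at most 0.000529% in 10244 genes) and served only to compare levels between genes.

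Symbols, gene types and coordinates come from GENCODE 29 (GRCh38), which held 58039 of 58302 identifiers. Coordinates are those of this annotation. Counting strand is unknown, so overlapping genes cannot be told apart.

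Counts were tested with edgeR 4.0.16 in R 4.3.3 (filterByExpr, TMM, robust quasi-likelihood F test, Benjamini-Hochberg adjustment over the 15063 genes tested, call at 0.05). The SE was taken as |log2 fold change| over the root of F. CPM used TMM-scaled library sizes, and centred values used log2 of CPM plus 0.5. Alternatives were RLE, library size alone, no filter, a minimum of 1 CPM in 3 libraries, limma-voom (limma 3.58.1), DESeq2 1.42.0, a replicate block, a loess correction (span 0.3) for transcript GC content and length, and leaving out each library. The representative transcript has the longest complete coding sequence. Simulated counts were used to test this edgeR step. Python 3.11.15 was used for tables and figures.

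Members and lists were chosen with earlier results of these data known. The rule for named genes takes KMT2C, every called member, the 10 largest positive and negative members with a mean log2 CPM of at least 1, the 2 smallest p in each cluster of 5 or more, the 5 highest FPKM, 3 genes on each side of the count minimum, 6 corepressors with TRIM28 and SETDB1, and 4 pseudogenes; others are named after their values were seen.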

Additional observations from a re-analysis of the deposited data

How the results depend on the processing

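The positive median of the members held under every setting run, from 0.21 with library size alone to 0.25 without a filter, and from 0.16 to 0.27 when 1 library was left out. It was 0.24 in the 186 members with a mean count of at least 50. Genes called over the whole table numbered 226, and 864 with DESeq2, 968 with the replicate block, 1336 with the GC and length correction and 1340 with both of the latter; they ranged from 16 to 620 without 1 library. In the same order members called higher numbered 19, 19, 21 and 20 (0 to 10 without 1 library) and lower 1, 2, 1 and 2 (0 to 2). Corepressors called numbered 1, 1, 5 and 4 (0 to 2), and other loci with zinc finger symbols 2, 2, 3 and 2 (0 to 1). Same-numbered libraries deviated together with correlations of 0.0195, 0.107 and 0.389 for replicates 1, 2 and 3. The siKMT2C replicates 1 and 2 did not correlate best with their own number, while siKMT2C replicate 3 did. The labels do not say whether same-numbered libraries were paired, and correlations among so few libraries cannot settle it.

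Leaving out 1 library, the median ran from 0.18 to 0.48 in cluster 2, from -0.34 to 0.16 in cluster 7, from 0.325 to 0.51 in cluster 14 and from 0.0426 to 0.15 in cluster 15. Clusters 12 to 15 merge at 2 Mb, with a median of 0.22. KMT2C ranged from -1.51 to -1.36, and was not called without siKMT2C replicate 1 or 2 or siNC replicate 2 (edgeR adjusted p from 0.00399 to 0.0634). ZNF146 was -0.0304 with library size alone, -0.00345 with the CPM minimum, -0.40 with limma-voom, -0.30 with the replicate block, -0.00884 with GC and length correction and -0.34 with both, and ran from -0.40 to 0.48 without 1 library. ZNF497 was 1.25 with limma-voom, 0.52 with the block and 0.57 with block and correction, and ran from -2.01 to 7.16. ZNF787 ran from -0.0825 to 0.50, ZNF428 from -0.49 to 0.54 and TRIM28 from -0.36 to 0.00918. The cause of these differences was not tested.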

Other observations

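Other loci of chromosome 19 with zinc finger symbols (ZNF with a suffix, ZFP, ZSCAN, ZIM, ZIK and ZKSCAN) numbered 79, of which 32 were tested. Of these, 16 were protein-coding, with a median log2 fold change of 0.14 and 10 positive, and 7 were pseudogenes, with a median of 0.60 and 5 positive. The remaining 9 were antisense or other non-coding RNA loci named after a zinc finger gene, not zinc finger genes, and reads cannot be assigned to them without strand. The pseudogene ZNF702P, inside the span of cluster 14, was the 1 called by edgeR. It was at 13.8, 15.03 and 11.5 CPM in siKMT2C and at 3.09, 2.35 and 0.901 CPM in siNC (2.67, SE 0.38, edgeR adjusted p = 0.0259). ZNF826P, in the span of cluster 5, was at 13.8, 14.8 and 12.5 CPM against 10.0, 8.998 and 8.17 CPM (0.60, SE 0.17, edgeR adjusted p = 0.124). ZNF542P (1.32, SE 0.41) and ZNF788P (0.64, SE 0.28) were not called. Reads of these pseudogenes may be shared with related ZNF genes.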
